A study of Mus musculus with 6 samples.

Results

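The genes described here serve cholesterol and fatty acid metabolism: 41 genes chosen by name, all with a row among the 14744 genes measured in T follicular helper (Tfh) cells, which give help to germinal center B cells. RNA was sequenced from Tfh cells of mesenteric lymph nodes (MLNs), sorted as CD4+B220-CD44+PD-1+CXCR5+ cells, in 3 WT libraries and 3 libraries labelled Bach2-cKO. The genotype behind that label is Bach2 fl/fl Cd4-cre: Cre driven by the *Cd4* promoter deletes the transcription factor gene *Bach2* in T cells, CD4+ and CD8+ alike. The study designates littermates with Cd4-cre as WT, the mice are labelled C57BL/6 (C57BL/6J in the study's methods) and were 2 to 3 months old, and 10000 to 30000 cells entered each library. The gate does not separate Foxp3+ follicular regulatory (Tfr) cells from Tfh cells. The labels do not say that each library came from a separate animal, so p-values measure the spread between these samples, which may be technical.

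Values are normalized read counts, the reads of a gene divided by a size factor of the library. They summed to 7809702, 7387316 and 8135325 in WT replicates 1, 2 and 3 and to 7456435, 7362290 and 7361229 in the replicates labelled Bach2-cKO. WT replicate 1 stood apart, since 11648 of its genes were above 0, whereas the other libraries had 13111 to 13567 such genes. *Bach2* itself went against the label. Its values were 233, 222 and 105 normalized counts in the WT libraries and 399, 763 and 591 in those labelled Bach2-cKO, a log2 fold change of 1.68 ± 0.37 (SE; limma, adjusted p = 0.141). On the reads of 5 libraries DESeq2 gave 1.81 with an adjusted p of 0.00118 and edgeR an adjusted p of 0.148. Limma with library weights gave 2.36 with an adjusted p of 0.000186. Here and below, those weights ran from 0.206 for WT replicate 1 to 5.54 for replicate 2 labelled Bach2-cKO. Over 18 alternatives the adjusted p of *Bach2* ran from 0.000186 to 0.507, so it passed the study's thresholds, against the label, in 2 of them. A count per gene includes exons outside a floxed segment, and 5.4% of the *Bach2* exon bases overlap the antisense gene *Bach2os*, so the count does not measure the deletion. Directions below are for the libraries as labelled, and an exchange of labels was not tested. *Foxp3*, the defining gene of Tfr cells, was lower without overlap in the libraries labelled Bach2-cKO (log2 fold change -1.76; limma, adjusted p = 0.141). The T cell genes *Cd3d* and *Trbc2* and the Tfh genes *Cxcr5* and *Pdcd1* were present in all 6 libraries, with *Cxcr5* between 1271 and 2207 normalized counts.

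Cells make cholesterol from acetyl-CoA through mevalonate and a series of sterol intermediates. The membrane-bound factors SREBP1 and SREBP2, made from *Srebf1* and *Srebf2*, switch on the genes of these steps when sterols are low. SCAP carries them to the Golgi for cleavage, INSIG holds SCAP in the endoplasmic reticulum when sterols are abundant, and liver X receptors answer a surplus of oxysterols by raising export through ABC transporters. Fatty acids are built from acetyl-CoA, elongated and desaturated in the endoplasmic reticulum, and burned by beta-oxidation in mitochondria. Activated T cells use both lipid supplies to build membrane as they divide.

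Of the 41 genes, 38 had at least 10 normalized counts in at least 3 of the 6 libraries and were tested, and none of the 38 passed that filter through 1 group alone. The difference between the groups was tested on log2(normalized count + 1) with limma over all 11296 genes that passed, so a fold change is on that scale. It depends on the added 1 for genes of low value, and a single library at 0 can make it larger than the ratio of the group means. The study's thresholds were a 2-fold change and an adjusted p of 0.01, and at these limma called 0 genes higher and 0 lower in the libraries labelled Bach2-cKO. The smallest adjusted p over all genes, 0.141, was shared by member genes. On the reads of 5 libraries (2 WT, 3 labelled Bach2-cKO) edgeR called 0 and 0 genes, and DESeq2 35 and 60, no member among them. Limma with library weights called 561 (4.97%) and 567 (5.02%) of all genes, with 4 members higher (*Scap*, *Hmgcs1*, *Abcg1* and *Fasn*) and 4 lower (*Idi1*, *Nsdhl*, *Sc5d* and *Elovl1*), and at an unadjusted p under 0.05 it gave 11 members higher and 9 lower, against 24.3% and 22.8% of all genes. At an unadjusted p under 0.05, 7 of the 38 members (18.4%) had higher and 5 (13.2%) lower values, against 10.1% and 10.2% of all genes tested (1144 and 1157). The 3 WT values did not overlap the 3 values labelled Bach2-cKO for 9 members on the higher side (23.7%) and 6 on the lower (15.8%), against 14.6% and 12.2% of all genes. The median log2 fold change was 0.25 over the members tested and 0.08 over all genes tested. Without WT replicate 1, 8 members had higher and 4 lower values at that p, against 9.79% and 9.43% of all genes in the same fit, and the median was 0.18. Without replicate 1 labelled Bach2-cKO these counts were 4 and 4 (all genes 4.14% and 5.36%), and with each library corrected for transcript length and GC content they were 3 and 5 (all genes 8.36% and 7.97%). Members with an unadjusted p under 0.05 lay on both sides, from *Idi1* at a log2 fold change of -1.74 to *Scap* at 1.35.

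**Figure D1:**
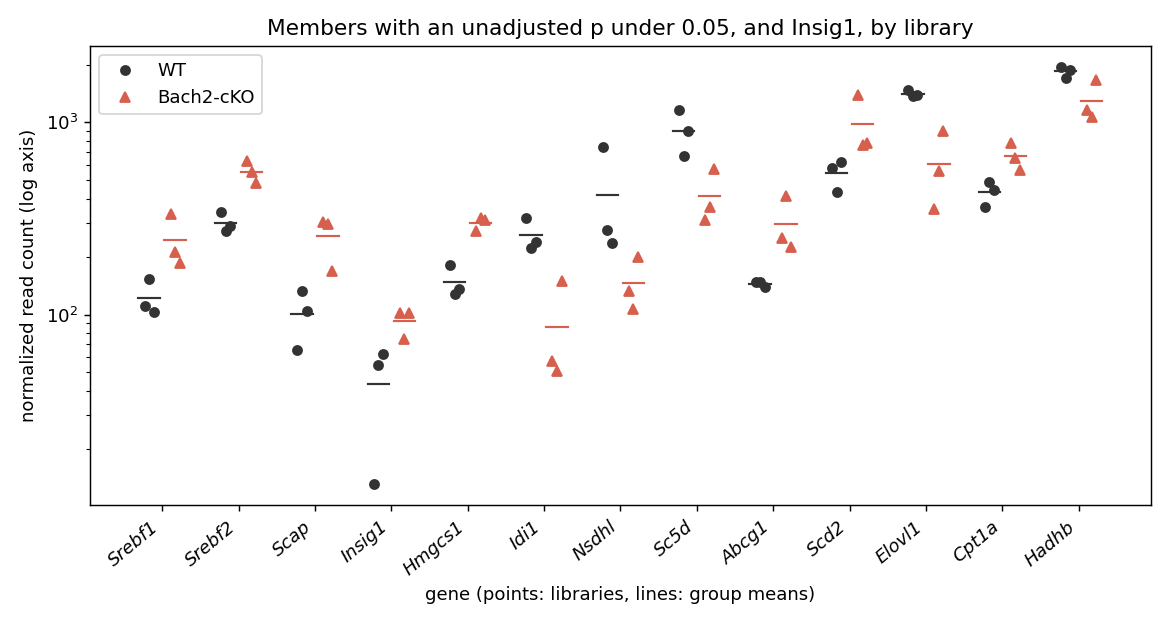
Normalized read counts (log axis) of the 12 members with an unadjusted limma p under 0.05, and of *Insig1*, in the 3 WT libraries (circles) and the 3 labelled Bach2-cKO (triangles), with group means as lines. The regulators *Srebf1*, *Srebf2* and *Scap* and the synthase gene *Hmgcs1* lie above WT in every library labelled Bach2-cKO, while *Idi1*, *Nsdhl*, *Sc5d* and *Elovl1* lie below.

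The 4 members that control the pathway had higher values in the libraries labelled Bach2-cKO. Of the genes of the same control outside the members, *Mbtps1* was also higher without overlap (log2 fold change 0.72, or 0.31 with the length and GC correction). *Insig2* and *Mbtps2* overlapped between the groups (-0.24 and -0.14). All 4 members, *Srebf1*, *Srebf2*, *Scap* and *Insig1*, separated the groups without overlap, 3 of the 4 had an unadjusted p under 0.05, and their median log2 fold change was 1.15 (of all genes, 14.6% were higher without overlap and 10.1% at that p). With each library corrected for transcript length and GC content the median was 0.56, and none of these 3 genes had an unadjusted limma p under 0.05: *Srebf1* was at 0.38, *Srebf2* at 0.23 and *Scap* at 0.74. *Srebf2* (chr15:82147181-82205379, GENCODE M21 on GRCm38), which encodes the SREBP of cholesterol synthesis, had 343, 273 and 288 normalized counts in WT and 630, 550 and 483 in the libraries labelled Bach2-cKO. The group means were 301 ± 37.1 and 554 ± 73.5 (SD, n = 3 each), so each library labelled Bach2-cKO exceeded the highest WT value. The log2 fold change was 0.88 ± 0.24 (SE; limma, unadjusted p = 0.00421, adjusted p = 0.144), with a 95% confidence interval of 0.34 to 1.41. DESeq2 on the reads of 5 libraries gave *Srebf2* 0.95 with an adjusted p of 0.0321, and edgeR an adjusted p of 0.151. Over 18 alternatives its adjusted p ran from 0.000889 to 0.589. *Srebf1* (chr11:60199089-60222581), whose product mainly serves fatty acid synthesis, had 111, 154 and 103 normalized counts in WT and 335, 211 and 185 in the libraries labelled Bach2-cKO. Replicate 1 labelled Bach2-cKO was the highest library, and the log2 fold change was 0.96 ± 0.35 (SE; limma, adjusted p = 0.184). *Scap* (chr9:110333288-110384950), the escort of both SREBPs, had 65.6, 132 and 105 normalized counts in WT and 304, 297 and 169 in the libraries labelled Bach2-cKO. WT replicate 1 was the lowest library for it, and the log2 fold change was 1.35 ± 0.39 (SE; limma, adjusted p = 0.149) and 1.07 without WT replicate 1. Of the *Scap* exon bases 13.2% overlap a gene on the other strand, as do 18.3% of those of *Fdft1*, 12.1% of *Hmgcs1* and 9.2% of *Idi1*, and the strand setting of the counting is not given in the sources used here. *Insig1* (chr5:28071363-28078662), which retains SCAP and is itself an SREBP target, had 13.1, 55.0 and 62.4 normalized counts in WT and 102, 75.0 and 102 in the libraries labelled Bach2-cKO. Its log2 fold change of 1.34 ± 0.63 (SE; limma, adjusted p = 0.26) leaned on the low WT replicate 1 and was 0.65 without it. Per kilobase of transcript, *Srebf2* was the most abundant of the 4 at 84.2 normalized counts and *Insig1* the least at 25.3, as means over the 6 libraries.

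Among the mevalonate steps, the genes of an early and a late enzyme differed in opposite directions. *Hmgcs1* (chr13:119690379-119708260) encodes the cytosolic HMG-CoA synthase, and *Idi1* (chr13:8885501-8892451) the isomerase that makes the allylic isoprenoid unit. *Hmgcs1* had 181, 128 and 136 normalized counts in WT and 273, 320 and 310 in the libraries labelled Bach2-cKO. The groups were far apart for their spread, at means of 148 ± 28.4 and 301 ± 24.4 (SD, n = 3 each), and the log2 fold change was 1.03 ± 0.29 (SE; limma, unadjusted p = 0.00505, adjusted p = 0.146). DESeq2 on the reads of 5 libraries gave *Hmgcs1* a log2 fold change of 1.16 with an adjusted p of 0.0219, and edgeR on the same reads an adjusted p of 0.151. Its adjusted p ran from 0.000792 to 0.507 over 18 alternatives. *Idi1* had 319, 222 and 239 normalized counts in WT and 57.6, 50.9 and 150 in the libraries labelled Bach2-cKO. Each library labelled Bach2-cKO was below the lowest WT value, though replicate 3 was nearer to WT than the others, and the log2 fold change was -1.74 ± 0.45 (SE; limma, unadjusted p = 0.00297, adjusted p = 0.141). On the reads of 5 libraries the adjusted p of *Idi1* was 0.0675 by DESeq2 and 0.177 by edgeR, within a range of 0.000342 to 0.507 over 18 alternatives. Of the 50-base stretches of the *Idi1* transcript 21.3% also occur in other genes, processed pseudogenes among them, so part of its reads may not be assigned to it with certainty. The ratio of *Hmgcs1* to *Idi1* within a library, which no size factor touches, was 0.566, 0.576 and 0.570 in WT and 4.74, 6.28 and 2.06 in the libraries labelled Bach2-cKO. This ratio is 1 of 4 computed, all chosen after the values were seen, and is given without a test. *Mvd*, the decarboxylase gene between these steps, had 43.4, 50.5 and 47.8 normalized counts in WT and 96.1, 54.3 and 77.7 in the libraries labelled Bach2-cKO, without overlap but with replicate 2 close to WT (log2 fold change 0.64 ± 0.47 (SE); limma, adjusted p = 0.432). It was 0.29 with library weights. *Fdps*, the farnesyl diphosphate synthase gene and the least abundant of these 6 genes per kilobase, stayed below the filter at 1.02 to 16.8 normalized counts. Of the 5 genes tested, 4 had a log2 fold change above 0 and the median was 0.54, but 2 of the 4 did not keep their sign. *Acat2*, a thiolase gene, went from 0.45 to -0.12 without WT replicate 1, and *Mvk*, the mevalonate kinase gene that sets the median, went as low as -0.17 with 1 library left out.

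SREBPs act on promoter sequences together with the CCAAT-binding factor NF-Y. Shown are the promoters of *Hmgcs1*, with higher values, and of *Nsdhl*, *Sc5d* and *Elovl1*, enzyme genes with lower values described below. They are the 250 bases before the RefSeq start site (GRCm38.p6), 5′ to 3′ on the gene's strand. Capitals mark the classical sterol regulatory element TCACNCCAC and the CCAAT box, on either strand (ATTGG is CCAAT on the other strand).
Hmgcs1 promoter, chr13:119690101-119690350, plus strand: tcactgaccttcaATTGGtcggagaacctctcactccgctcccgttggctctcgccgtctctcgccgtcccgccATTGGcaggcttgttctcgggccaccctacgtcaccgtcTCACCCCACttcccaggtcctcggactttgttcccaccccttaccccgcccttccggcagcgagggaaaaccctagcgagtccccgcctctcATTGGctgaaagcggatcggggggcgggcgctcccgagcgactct
Nsdhl promoter, chrX:72918271-72918520, plus strand: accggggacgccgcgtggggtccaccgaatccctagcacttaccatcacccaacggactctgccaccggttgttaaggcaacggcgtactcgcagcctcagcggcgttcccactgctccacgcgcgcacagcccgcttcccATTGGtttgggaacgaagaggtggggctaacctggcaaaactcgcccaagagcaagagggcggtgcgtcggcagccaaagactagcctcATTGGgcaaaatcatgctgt
Sc5d promoter, chr9:42264301-42264550, minus strand: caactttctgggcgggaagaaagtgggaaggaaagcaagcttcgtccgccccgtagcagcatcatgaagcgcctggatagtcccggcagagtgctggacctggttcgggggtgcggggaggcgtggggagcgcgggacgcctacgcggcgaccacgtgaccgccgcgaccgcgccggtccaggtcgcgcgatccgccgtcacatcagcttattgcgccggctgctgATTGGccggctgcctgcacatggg
Elovl1 promoter, chr4:118427843-118428092, plus strand: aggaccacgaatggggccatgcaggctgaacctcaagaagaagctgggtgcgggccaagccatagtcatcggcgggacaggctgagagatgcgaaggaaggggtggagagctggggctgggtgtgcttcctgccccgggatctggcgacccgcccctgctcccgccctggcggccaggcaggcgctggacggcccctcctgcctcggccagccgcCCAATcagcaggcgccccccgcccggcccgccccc
RefSeq windows from 250 bases before to 50 after the start were at hand for 34 of the 41 members, as 40 windows. The sterol regulatory element letters occurred in 1 of them, that of *Hmgcs1*, where the match TCACCCCAC begins 137 bases before the start, and in 1.24% of all 32851 mouse windows. CCAAT was found in 57.5% of the member windows and 37.4% of all windows. Shares are of windows, of which a gene can have several, and all windows were not limited to genes tested here. CCAAT was in all 4 promoters shown, which were chosen after motif counts were seen. It was in no window of *Scap* and not in a second window of *Elovl1*, which is not shown. TGANTCA, with any base at N, is broader than the core that BACH and AP-1 factors share, which has C or G there. It was in 5% of member windows (*Dhcr7* and *Msmo1*, both as TGAGTCA) and 7.81% of all. The other motifs searched were CACGTG, in 20% and 7.15%, and GGGCGG, in 80% and 35.7%. The matches in capitals do not overlap each other, and overlap among the other motifs was not removed. These are matches of letters only.

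The later sterol steps, from squalene to cholesterol, held no member with a higher value at an unadjusted p under 0.05 and 2 of 11 (18.2%) with a lower one, against 10.1% and 10.2% of all genes. *Sc5d* (chr9:42251595-42264256), the desaturase that acts late in the path, had 1157, 667 and 899 normalized counts in WT and 309, 363 and 573 in the libraries labelled Bach2-cKO. The groups did not overlap, and the log2 fold change was -1.14 ± 0.30 (SE; limma, unadjusted p = 0.00317, adjusted p = 0.141). *Nsdhl* (chrX:72918557-72958514), which takes part in removing the methyl groups at carbon 4 of the sterol ring, had 745, 277 and 235 normalized counts in WT and 133, 107 and 199 in the libraries labelled Bach2-cKO. WT replicate 1 was far above the other WT libraries, and the log2 fold change of -1.36 ± 0.45 (SE; limma, adjusted p = 0.163) was -0.84 without it. *Fdft1*, the squalene synthase gene, had 418, 477 and 438 normalized counts in WT and 361, 271 and 375 in the libraries labelled Bach2-cKO, a smaller difference without overlap (log2 fold change -0.41 ± 0.24 (SE); limma, adjusted p = 0.345). *Ebp*, the sterol isomerase gene, was the most abundant of the 11 per kilobase, at 505 normalized counts, with 802 to 1065 per gene in WT and 746 to 944 in the libraries labelled Bach2-cKO. *Hsd17b7* was the least abundant at 5.60 per kilobase and was listed at 0 in WT replicate 1, 13.5 and 22.9 in the other WT libraries, and 32.5, 9.38 and 76.7 in those labelled Bach2-cKO. Its log2 fold change of 2.10 ± 1.31 (SE; limma, adjusted p = 0.369) was 0.69 without WT replicate 1 and turned to -0.37 with library weights. *Sqle*, the squalene epoxidase gene, and *Dhcr7*, the gene of the final reductase, overlapped between the groups, as did *Lss*, *Cyp51*, *Tm7sf2* and *Msmo1*. The median over the 11 was -0.11, but it was 0.18 without WT replicate 1 and 0.0416 with the length and GC correction.

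**Figure D2:**
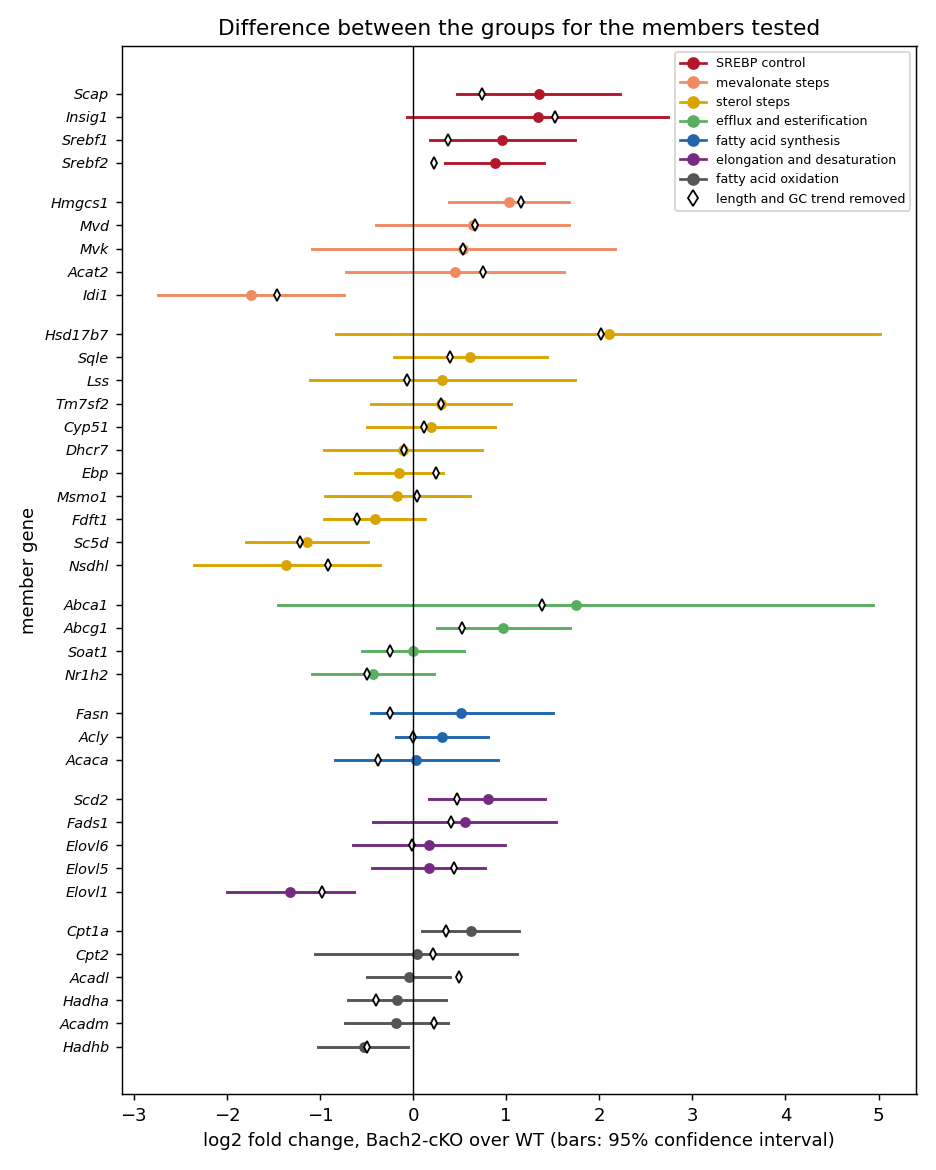
Log2 fold change of the 38 members tested, libraries labelled Bach2-cKO over WT, with 95% confidence intervals (bars), ordered within groups by role; open diamonds give the value after a trend in transcript length and GC content was removed. All 4 control genes lie above 0, while *Idi1* at -1.74, *Nsdhl* at -1.36 and *Sc5d* at -1.14 lie below.

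Among the genes for removal and storage of cholesterol, *Abcg1* (chr17:31057675-31117988), a transporter gene that liver X receptors induce, had 147, 147 and 140 normalized counts in WT and 250, 413 and 225 in the libraries labelled Bach2-cKO. The WT values were close together and each library labelled Bach2-cKO was above them (log2 fold change 0.97 ± 0.32 (SE); limma, unadjusted p = 0.0125, adjusted p = 0.163). With the length and GC correction *Abcg1* was at 0.53 and its unadjusted limma p was no longer under 0.05. *Nr1h2*, which encodes the liver X receptor beta and was the most abundant of the 4 at 177 normalized counts per kilobase, had 554, 310 and 365 normalized counts in WT and 281, 249 and 365 in the libraries labelled Bach2-cKO. These overlapped (log2 fold change -0.43 ± 0.30 (SE); limma, adjusted p = 0.408), and the log2 fold change was -0.19 without WT replicate 1. The transporter gene *Abca1*, the least abundant at 5.30 per kilobase, was listed at 0 in WT replicate 1, at 98.7 and 48.9 in the other WT libraries, and at 56.2, 85.8 and 36.8 in those labelled Bach2-cKO. Its log2 fold change was 1.75 ± 1.44 (SE; limma, adjusted p = 0.487) and turned to -0.30 without WT replicate 1. *Soat1*, whose product esterifies cholesterol for storage, had means of 449 ± 106 and 443 ± 35.2 normalized counts (SD, n = 3 each).

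The 3 genes of fatty acid synthesis overlapped between the groups. *Acly*, which makes cytosolic acetyl-CoA from citrate, had 838, 600 and 761 normalized counts in WT and 1040, 872 and 803 in the libraries labelled Bach2-cKO (log2 fold change 0.31 ± 0.22 (SE); limma, adjusted p = 0.421). This was 0.00258 with the length and GC correction and as low as 0.17 with 1 library left out. *Acly* was the most abundant of the 3 per kilobase at 185, and *Acaca*, the acetyl-CoA carboxylase gene, the least at 10.1. *Acaca* had 79.8 to 124 normalized counts over the 6 libraries, with a log2 fold change of 0.03 that took either sign across settings, and 52.6% of its 50-base stretches also occur in a processed pseudogene. *Fasn*, the fatty acid synthase gene, ran from 107 to 410 normalized counts within WT alone. Its log2 fold change was 0.52 ± 0.44 (SE; limma, adjusted p = 0.495), between 0.0637 and 1.03 with 1 library left out, and -0.25 with the length and GC correction. With library weights limma called it, at 1.25 with an adjusted p of 0.00247. The weight was 0.206 for WT replicate 1, its highest library at 410 normalized counts, and 5.54 for replicate 2 labelled Bach2-cKO.

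Elongation and desaturation also held genes that differed in opposite directions. *Elovl1* (chr4:118428093-118432953), the elongase of very long saturated chains, had 1469, 1373 and 1387 normalized counts in WT and 355, 561 and 901 in the libraries labelled Bach2-cKO. The WT libraries lay close together, at 1410 ± 51.6, and all 3 labelled Bach2-cKO were lower, at 606 ± 276 (SD, n = 3 each). The log2 fold change was -1.32 ± 0.31 (SE; limma, unadjusted p = 0.0015, adjusted p = 0.141), and -1.21 with an adjusted p of 0.0278 by DESeq2 on the reads of 5 libraries. The adjusted p of *Elovl1* by edgeR on these reads was 0.159, and it ran from 0.000342 to 0.507 over 18 alternatives. Per kilobase, *Elovl1* was the most abundant of the 7 genes in WT at 778 normalized counts, but in the libraries labelled Bach2-cKO it was at 334, below *Elovl5* at 447. *Scd2* (chr19:44293674-44306864), a stearoyl-CoA desaturase gene, had 577, 436 and 622 normalized counts in WT and 1395, 760 and 777 in the libraries labelled Bach2-cKO. The log2 fold change was 0.80 ± 0.28 (SE; limma, unadjusted p = 0.0175, adjusted p = 0.175), and replicate 1 labelled Bach2-cKO was the highest library. It was 0.51 without that library and 0.47 with the length and GC correction, where the unadjusted p was not under 0.05. The related *Scd1*, at 1.22 normalized counts per kilobase over the 6 libraries, and the desaturase gene *Fads2*, at 1.38, were below the filter, with at most 14.3 and 19.2 normalized counts. *Fads2* was listed at 0 in all 3 WT libraries and at 19.2, 0.67 and 6.14 in those labelled Bach2-cKO. *Elovl5*, *Elovl6* and *Fads1* overlapped between the groups, with log2 fold changes of 0.17, 0.17 and 0.56, of which *Elovl5* turned to -0.0297 without WT replicate 1 and *Elovl6* to -0.0111 with the length and GC correction.

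For fatty acid oxidation, *Cpt1a* (chr19:3322334-3385733), the carnitine transferase through which long chains enter mitochondria, had 365, 491 and 444 normalized counts in WT and 782, 650 and 568 in the libraries labelled Bach2-cKO. *Hadhb* (chr5:30155248-30184593), which encodes the thiolase subunit of the trifunctional protein, had 1947, 1698 and 1883 in WT and 1156, 1064 and 1664 in the libraries labelled Bach2-cKO. Neither pair of groups overlapped, and the log2 fold changes were 0.62 ± 0.24 and -0.53 ± 0.22 (SE; limma, adjusted p = 0.195 and 0.211). With the length and GC correction *Cpt1a* was at 0.35 and *Hadhb* at -0.50, and neither had an unadjusted limma p under 0.05. *Hadha*, the partner subunit of *Hadhb*, overlapped, at 711 ± 70.2 and 640 ± 143 normalized counts (SD, n = 3 each). *Acadl*, at 416 normalized counts per kilobase in WT beside 420 for *Hadhb*, and at 401 beside 295 in the libraries labelled Bach2-cKO, had 796 ± 85.0 and 768 ± 65.0 normalized counts (SD, n = 3 each), and *Acadm*, another acyl-CoA dehydrogenase gene, 392 ± 53.7 and 345 ± 49.3. *Cpt2*, the least abundant of the 6 at 64.9 per kilobase, had 303 normalized counts in WT replicate 1 against 86.4 and 101 in the other WT libraries and 109 to 175 in those labelled Bach2-cKO.

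**Figure D3:**
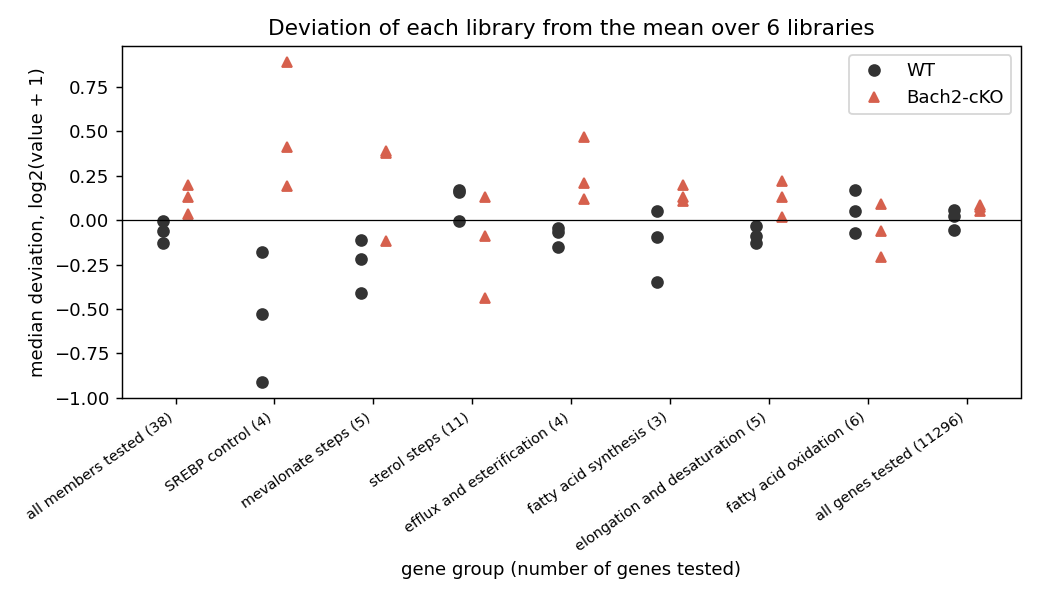
Median deviation of each library from the mean over the 6 libraries, in log2(normalized count + 1), for the members tested, each group by role and all genes tested; circles are WT and triangles the libraries labelled Bach2-cKO, and the number of genes is in parentheses. As measured, the 4 control genes separate the groups most widely (-0.91, -0.18 and -0.53 in WT and 0.89, 0.41 and 0.19 in the libraries labelled Bach2-cKO). The groups overlap for the 5 mevalonate steps, the 11 sterol steps, the 6 oxidation genes and all genes tested. With the length and GC correction the median log2 fold change was 0.56 for the control genes and 0.67 for the mevalonate steps.

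Transcript length moved with these differences. Over 11271 genes with a known length, the log2 fold change and the transcript length had a Spearman rho of 0.32 (across genes, which are not independent replicates), and the median log2 fold change went from -0.16 in transcripts under 1500 bases to 0.45 between 5000 and 7500 bases. Within libraries, the rho of a gene's deviation with length was -0.23, -0.05 and -0.26 in WT and 0.33, 0.24 and -0.01 in the libraries labelled Bach2-cKO. Over the 38 members it was 0.38 for the log2 fold change. The 19 members longer than the members' median of 3814 bases were at a median of 0.52 in log2 fold change (16 of 19 above 0), and the 19 others at -0.05 (9 above 0). This split was chosen after the values were seen. After each library was corrected for a smooth dependence on length and GC, these medians were 0.12 and 0.25. *Srebf1*, *Srebf2* and *Scap*, all longer than that median, then had log2 fold changes of 0.38, 0.23 and 0.74, and none kept an unadjusted limma p under 0.05. *Abcg1*, *Scd2*, *Cpt1a* and *Hadhb* were no longer under 0.05 either. *Hmgcs1* at 1.16, *Idi1* at -1.46, *Sc5d* at -1.21, *Nsdhl* at -0.91 and *Elovl1* at -0.98 were still under it, and *Insig1* at 1.52, *Acadl* at 0.49 and *Fdft1* at -0.60 came under it. So 3 members had higher and 5 lower values at that p after the correction, against 8.36% and 7.97% of the 11271 genes. The part of length in the differences between the groups was not tested.

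**Figure D4:**
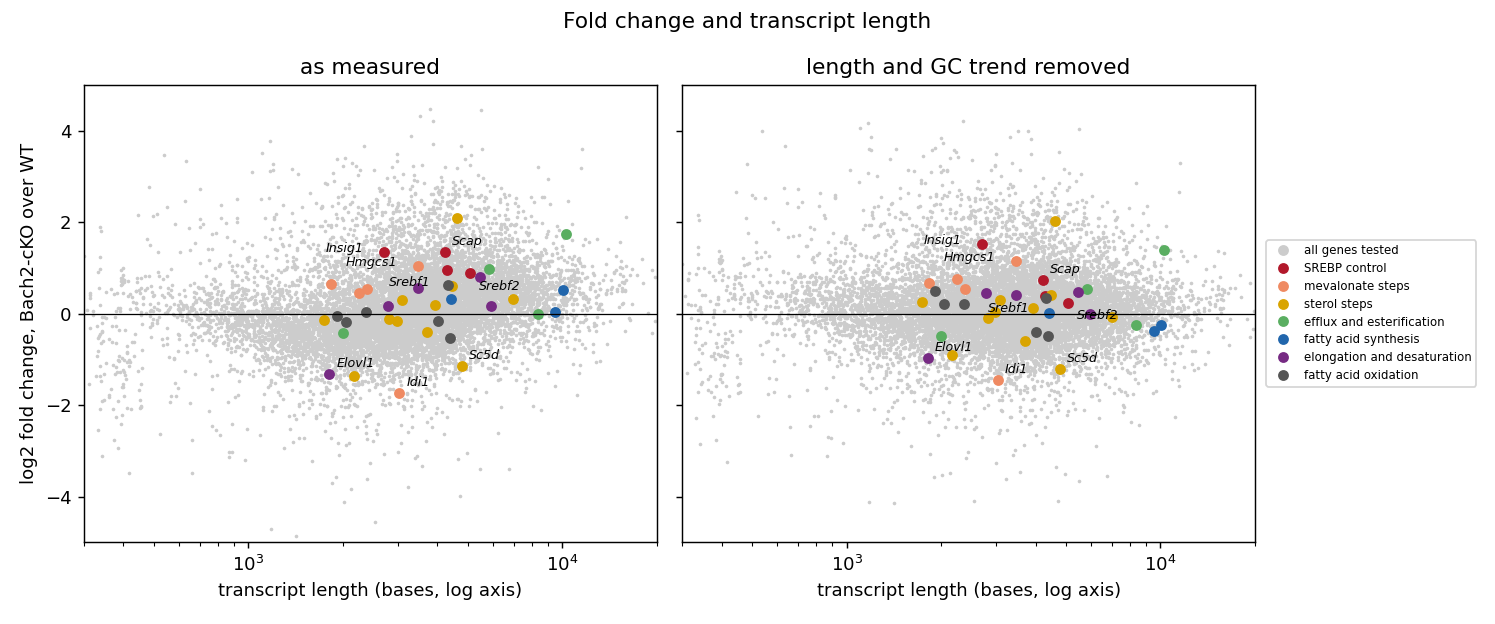
Log2 fold change, libraries labelled Bach2-cKO over WT, against transcript length (log axis, the few shortest and longest genes fall outside the axis), for all genes tested (gray) and the members by role (colors), as measured (left) and with a trend in length and GC content removed (right). *Srebf1*, *Srebf2* and *Scap* move toward 0 on the right (to 0.38, 0.23 and 0.74), while *Hmgcs1*, *Insig1*, *Idi1*, *Sc5d* and *Elovl1* stay away from it.

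Markers of other cells and of cell division also differed between libraries. In bulk RNA, fewer cells of a type and less RNA per cell cannot be told apart. Of all genes tested, 10.1% had higher and 10.2% lower values at an unadjusted p under 0.05, and 12.2% were lower without overlap. Of 6 genes of Tfr or regulatory T cells, 3 had lower values at an unadjusted p under 0.05, 4 did not overlap on the lower side, and the list, led by *Ikzf2*, summed to 6678, 6949 and 8827 normalized counts in WT and 7010, 5912 and 5292 in the libraries labelled Bach2-cKO. *Foxp3*, its defining gene, had 222, 315 and 344 normalized counts in WT and 47.3, 140 and 91.0 in the libraries labelled Bach2-cKO. Of 16 proliferation genes, led by *Pcna*, 4 had lower and 1 higher values at that p, and they summed to 33302, 14706 and 22963 in WT and 17103, 13657 and 20181 in the libraries labelled Bach2-cKO. The 5 plasma cell genes, led by *Jchain*, summed to 1905, 30168 and 8343 in WT and 3116, 1404 and 1505 in the libraries labelled Bach2-cKO. Of the 3 tested, *Xbp1* was lower at that p, while *Jchain* and *Mzb1* overlapped between the groups. The 8 B cell genes, led by *Cd79b*, summed to 240, 813 and 569 in WT and 432, 343 and 350 in the libraries labelled Bach2-cKO (1 of 6 tested lower). The 8 myeloid genes, led by *Lyz2*, summed to 2335, 8090 and 4049 in WT and 2170, 5596 and 1870 in the libraries labelled Bach2-cKO (1 of 6 tested higher, 2 lower). The 5 red blood cell genes, led by *Hbb-bs*, reached 744 in WT replicate 2 and 2867 in replicate 3 labelled Bach2-cKO and at most 30.8 elsewhere. CD8 T cell or NK cell genes (6, led by *Cd8b1*) summed to 491 to 1288 normalized counts and dendritic cell genes (6, led by *Siglech*) to 149 to 452, with none at that p. Stromal or endothelial genes (5, led by *Pecam1*) summed to 450 to 587. Of these only *Pecam1* was tested, and it was not at that p. The collagen genes *Col1a1*, *Col1a2* and *Col3a1* were at 0 in at least 3 libraries. The 8 T cell genes, led by *Trbc2*, summed to 86090, 87748 and 114389 in WT and 70522, 70444 and 85026 in the libraries labelled Bach2-cKO, lower without overlap, with 1 gene higher and 3 lower at that p. Among Tfh genes (8, led by *Sh2d1a*) 2 were higher and 1 was lower. The part of these cells in the lipid gene differences was not tested.

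Of 89 further genes of the same pathways, 78 had a row in the table used here and 71 were tested. At an unadjusted p under 0.05, 6 (8.45%) had higher and 5 (7.04%) lower values, beside 10.1% and 10.2% of all genes, and the median log2 fold change of the 71 was 0.07. Without overlap, 9 (12.7%) were higher and 10 (14.1%) lower, beside 14.6% and 12.2% of all genes, and 6 of the 10 were among the 26 oxidation genes tested. Both the 6 higher at that p and the 9 higher without overlap include the fatty acid gene *Scd4*. It passed the filter only through the group where it is high, so it could count only as higher. *Cyb5r3*, the reductase that supplies electrons to sterol and fatty acid desaturases by way of cytochrome b5, had 1146, 932 and 756 normalized counts in WT and 275, 176 and 692 in the libraries labelled Bach2-cKO. The groups did not overlap, although replicate 3 labelled Bach2-cKO lay near WT (log2 fold change -1.53 ± 0.43 (SE); limma, adjusted p = 0.146). Limma with library weights called *Cyb5r3*, at -2.02 with an adjusted p of 0.000342. The other 4 with lower values, named after their values were seen, include *Hacd2* and *Tecr*, which act with the elongases in the elongation cycle. *Hacd2* had 791, 436 and 465 normalized counts in WT and 220, 321 and 316 in the libraries labelled Bach2-cKO, and *Tecr* 3195, 3688 and 4357 against 2000, 2286 and 2917. *Acadvl* and *Etfa*, both of mitochondrial oxidation, had log2 fold changes of -1.98 and -0.61, or -1.78 and -0.0217 with the length and GC correction, and the groups overlapped for *Etfa*. At an unadjusted p under 0.05, 3 of 22 sterol genes were higher and 1 lower. Of 23 fatty acid genes 2 (*Scd4* among them) and 2 were so, and of 26 oxidation genes 1 and 2. The higher genes at that p, besides *Scd4* and *Mbtps1*, were *Rxra*, *Gpr183*, *Dgat1* and *Acaa1a*. Their log2 fold changes were 1.74, 0.60, 0.80 and 0.70, or 1.15, 0.89, 0.93 and 0.37 with the length and GC correction. Of these only *Gpr183* overlapped between the groups, and all were named after their values were seen. *Mbtps1*, also named after its values were seen, encodes the Golgi protease that makes the first cut in SREBPs. It had 281, 440 and 337 normalized counts in WT and 650, 547 and 523 in the libraries labelled Bach2-cKO (log2 fold change 0.72 ± 0.25 (SE); limma, adjusted p = 0.173), and its log2 fold change was 0.31 with the length and GC trend removed. Of the same list, *Mbtps2*, the gene of the protease that makes the next cut, had 244, 165 and 127 normalized counts in WT and 189, 161 and 125 in the libraries labelled Bach2-cKO, and *Insig2*, a relative of *Insig1*, 306, 483 and 563 against 384, 348 and 380. Both overlapped between the groups, and both were named after their values were seen. *Scd4*, likewise named after its values were seen, had 11.8, 18.1 and 12.3 normalized counts in the libraries labelled Bach2-cKO and was listed at 0 in all 3 WT libraries.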

How the data were processed

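RNA sequencing data of 6 Tfh libraries, 3 WT and 3 labelled Bach2-cKO, were used. The cDNA was amplified with a SMARTer Ultra Low kit before TruSeq library preparation and NextSeq500 sequencing. The deposited signal is a normalized read count, made by the authors by dividing the reads counted per gene by size factors. The study's methods name Tophat2, HTSeq and DESeq2, whereas the submitters' processing notes name STAR 2.5.2b, DESeq2 1.20.0, R 3.5.1 and the GRCm38 (mm10) build; which aligner gave these values is not settled here.

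Log2(normalized count + 1) was tested with limma 3.58.1 (R 4.3.3, trended variance, all 6 libraries, Benjamini-Hochberg adjustment) over 11296 genes. Values of each library were whole multiples of 1 step in 100.0% of cases (tolerance 0.01 of a step). Whole reads, 5045131 to 10987752 per library, were recovered for 5 libraries and tested with edgeR 4.0.16 and DESeq2 1.42.0. The step of WT replicate 1, 1.009, is too near a power of 10 to be accepted by the rule on units. A value of 0 allows up to 3 steps, 2.01 to 4.43 normalized counts by library, for counting error only. The tests were checked on simulated data. Lengths, GC content and coordinates are from GENCODE M21, matched for 14329 genes by symbol and 372 by an older symbol, and the trend was fitted with mgcv 1.9.3. Promoters are from RefSeq.

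Members and gene lists were chosen with earlier results of these data known. Genes named were *Bach2*, the 4 control genes, members with an unadjusted p under 0.05 or without overlap, the most and least abundant member of each group per kilobase, and other pathway genes with an unadjusted p under 0.01. The other members were given by value, range or count, and further pathway genes were named after their values were seen. Alternatives were other pseudocounts, filters, scalings, variance models, library weights, count tests, a replicate block, a length and GC trend, and leaving out each library.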

Additional observations from a re-analysis of the deposited data

How the results depend on the processing

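Over 12 alternatives, 277 of 299 log2 fold changes of 25 named genes kept their direction and their side of the thresholds. Of the 25 genes, 19 changed sign in no setting. These counts do not measure robustness, since many of the genes were named for a low p or a lack of overlap in these same libraries. A gene without overlap cannot change sign when 1 library is left out. The main fit called no gene, so a kept side means only that a gene stayed uncalled. With library weights (0.206 for WT replicate 1 to 5.54 for replicate 2 labelled Bach2-cKO), 561 genes were called higher and 567 lower, 11 members had higher and 9 lower values at an unadjusted p under 0.05 (all genes 24.3% and 22.8%), and the member median was 0.15. Of the 25 named genes *Hsd17b7* (-0.37) and *Acaca* (-0.0717) then changed sign. Among the other members *Acat2* (-0.12), *Cyp51* (-0.12), *Tm7sf2* (-0.00793) and *Dhcr7* (0.0646) did so. DESeq2 on the reads of 5 libraries called 35 genes higher and 60 lower and gave a member median of 0.17, with *Abca1* at -0.33 and *Acaca* at -0.0609. EdgeR gave -0.31 and -0.041 for these genes. With the length and GC trend removed, 3 members had higher values at that p, and *Ebp* (0.25), *Acaca* (-0.38), *Acadl* (0.49), *Fasn* (-0.25), *Lss* (-0.0638), *Msmo1* (0.0416), *Acadm* (0.22), *Elovl6* (-0.0111) and *Soat1* (-0.25) changed sign. Of the 25 named genes, quantile normalization changed the sign of *Acaca* (-0.0959), *Acadl* (0.04) and *Cpt2* (-0.0325). The cause was not tested for these values, except that the count tests lack WT replicate 1.

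With 1 library left out, 0 genes were called higher and 0 lower, 4 to 8 members had higher and 4 to 5 lower values at that p (all genes 4.14% to 13.1% and 5.36% to 14%), and the member median ran from 0.17 to 0.25. The 4 came without replicate 1 labelled Bach2-cKO. Over these settings *Abca1* ran from -0.30 to 3.02, *Acaca* from -0.15 to 0.16, *Acadl* from -0.14 to 0.022 and *Cpt2* from -0.30 to 0.60.

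The values showed no pairing by replicate number: the correlations of deviations from the group means between same-numbered libraries were -0.07, 0.12 and -0.04. With 3 libraries per group, such correlations cannot show whether same-numbered libraries were handled together. With the replicate block, 0 genes were called higher and 0 lower, 7 members had higher and 5 lower values at that p (all genes 9% and 9.15%), and the member median was 0.25. The lowest genes, such as *Fdps*, *Scd1* and *Fads2*, were below the filter, and the part of depth in this was not tested.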
